A study of Bos taurus with 8 samples.

Results

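Integrins and cadherins are the main families of transmembrane receptors by which cells hold to the matrix around them and to one another. Their genes were followed on liver microarrays of 4 Holstein bull cattle that received an antibody against bacterial lipopolysaccharide (LPS) at 2 doses. The genes were chosen by name: every non-control probe whose gene name begins with ITGA, ITGB or CDH followed by a chain letter or number, leaving out CDH5. This gave 48 genes of 14952 gene names on the array, with 1 probe each: 23 integrin chains, 21 cadherins, and 4 genes (ITGB1BP1, ITGB1BP2, ITGB1BP3 and ITGB3BP) that share the prefix but were first named for binding an integrin. By their transcript accession or symbol, 40 and 8 of the 48 were matched to a current cattle gene, and the probe named ITGB1BP3 belongs to the gene now called NMRK2, a nicotinamide riboside kinase.

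The fistulated animals were 5 to 6 months old and belonged to a Latin square trial in which a high-grain diet (50% concentrate and 50% soybean flakes) was fed for 2 days to bring on subacute ruminal acidosis, SARA, an excess of acid in the rumen. Egg-yolk immunoglobulin with the antibody was put into the rumen once a day for 14 days. The 0 g group (the trial's control) and the 4 g group, each of 4 arrays, are the same animals, numbers 19, 20, 23 and 24, sampled 2 days after the challenge at each dose. Both groups therefore had the challenge diet and the fistula, and no unchallenged liver entered the comparison. The 2 g group was not analysed here, and the labels do not give the period in which an animal received a dose.

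An integrin is a pair of 1 alpha and 1 beta chain that crosses the membrane. It binds matrix proteins such as collagen, laminin, fibronectin and vitronectin, or counter-receptors on other cells, and is coupled to the actin cytoskeleton by talin and other adapters. Classical cadherins bind the same cadherin on a neighbouring cell and are tied to actin by catenins. In liver, E-cadherin (CDH1) and N-cadherin (CDH2) join hepatocytes, while leukocyte integrins are carried by Kupffer cells and by blood cells passing through the sinusoids.

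The array measures each gene with a single 60-base probe, so the value of a gene is that of 1 stretch of its transcript. The probes of 4 beta chains that are described together below are shown as the deposited array files give them, 5′ to 3′, because ITGB5 and ITGB3 differed between arrays more than the other tested beta chains did and ITGB1 varied little. Their places on the cattle assembly UMD 3.1 are chr13:20285161-20290974 on the plus strand for ITGB1, chr19:47003061-47005401 on the plus strand for ITGB3, chr1:69842030-69848927 on the minus strand for ITGB5 and chr5:26969267-26970322 on the plus strand for ITGB7.
ITGB1: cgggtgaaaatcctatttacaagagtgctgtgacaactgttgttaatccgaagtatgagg
ITGB3: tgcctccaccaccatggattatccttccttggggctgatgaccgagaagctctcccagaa
ITGB5: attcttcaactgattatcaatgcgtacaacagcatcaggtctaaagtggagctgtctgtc
ITGB7: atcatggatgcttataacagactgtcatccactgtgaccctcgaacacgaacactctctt

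Each of these intervals is longer than the probe, so each probe joins at least a pair of exons, as do the intervals of 11 of the 48 probes. The GC content of the ITGB1 and ITGB5 probes is 41.67%, that of the ITGB7 probe 45.0% and that of the ITGB3 probe 55.0%, within a range of 35.0% to 76.67% over the 48. Over all 1128 pairs of the 48 probes, the longest run of bases shared was 12 (CDH2 and CDH3), so no pair of these genes was read by near-identical probes. Exon numbers and untranslated regions are not given, since only the coordinates of the probes were used here.

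A level is the log2 of the spot signal minus the log2 of the 75th percentile of all spots on that array, so that 0 is the brightness of a fairly bright spot and each unit is a 2-fold step. Spots well above background made up 64.6% to 80.5% of an array. The 75th percentile was 125.8 on the 4 g array of cattle 19 and 126.3 on the 0 g array of cattle 20, against 218.0 to 311.7 on the other 6, so each dose holds 1 dim array. The tissue label names liver and the extraction protocol in the same labels rumen epithelium. All 12 hepatocyte markers were well above background on every array. Of 11 squamous and rumen epithelial markers, 3 to 6 were well above background per array: KRT5 and KRT6B on all 8, IVL and SBSN on 7, KRT6A and A2ML1 on 1, and KRT4, KRT14, TP63, DSC3 and DSG3 on none. Their summed level was 1.35 on the 0 g array of cattle 19 and −2.99 to −0.99 on the other 7. On the 0 g array of cattle 23, all 10 pancreatic acinar markers that have a probe gave a signal well above background, with a summed level of 10.91 (log2) against 3.40 to 4.65 on the other 7. Of these markers, 8 were well above background on the 4 g array of cattle 23. On the 0 g and 4 g arrays of cattle 24 it was 8 and 7, and on each array of cattle 19 and 20 it was 3. Apart from the dim pair, 18 probes took 2 separate levels, at least 1.5 log2 units apart. In these, both arrays of an animal lay on 1 level in 17 for cattle 19 and in 17 for cattle 20, but in only 8 for cattle 23 and in 8 for cattle 24. In the same probes the 0 g arrays of cattle 23 and 24 shared a level in 15 and their 4 g arrays in 17. These arrays thus shared a level more often across the animals than within them. The pairing of those 4 arrays rests on their labels, which these probes do not bear out, and whether the labels are right was not tested.

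Of the 48 genes, 19 were well above background on all 8 arrays, 9 on 4 to 7, 10 on 1 to 3 and 10 on none. Those well above background on at least 4 arrays were tested: 16 integrin chains, 9 cadherins and 3 integrin-binding proteins, 28 in all. Among the 20 genes not tested were ITGB4 and ITGB6, the beta chains of epithelial integrins, and ITGA11, a collagen receptor chain, none of which was well above background on any array. The same held for the type II cadherins CDH9, CDH10, CDH12 and CDH18, mostly known from the nervous system, for CDH13, a cadherin held to the membrane by a lipid anchor, and for CDH23 and CDH26. Levels of the 20 untested genes ran from −8.42 to −4.54 over the arrays, and the number of arrays with a signal well above background was 3 for CDH6, 2 each for ITGA2, ITGA3 and ITGB8, and 1 each for CDH8, CDH16, CDH19, CDH20, ITGAM and ITGB1BP3.

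**Figure D1:**
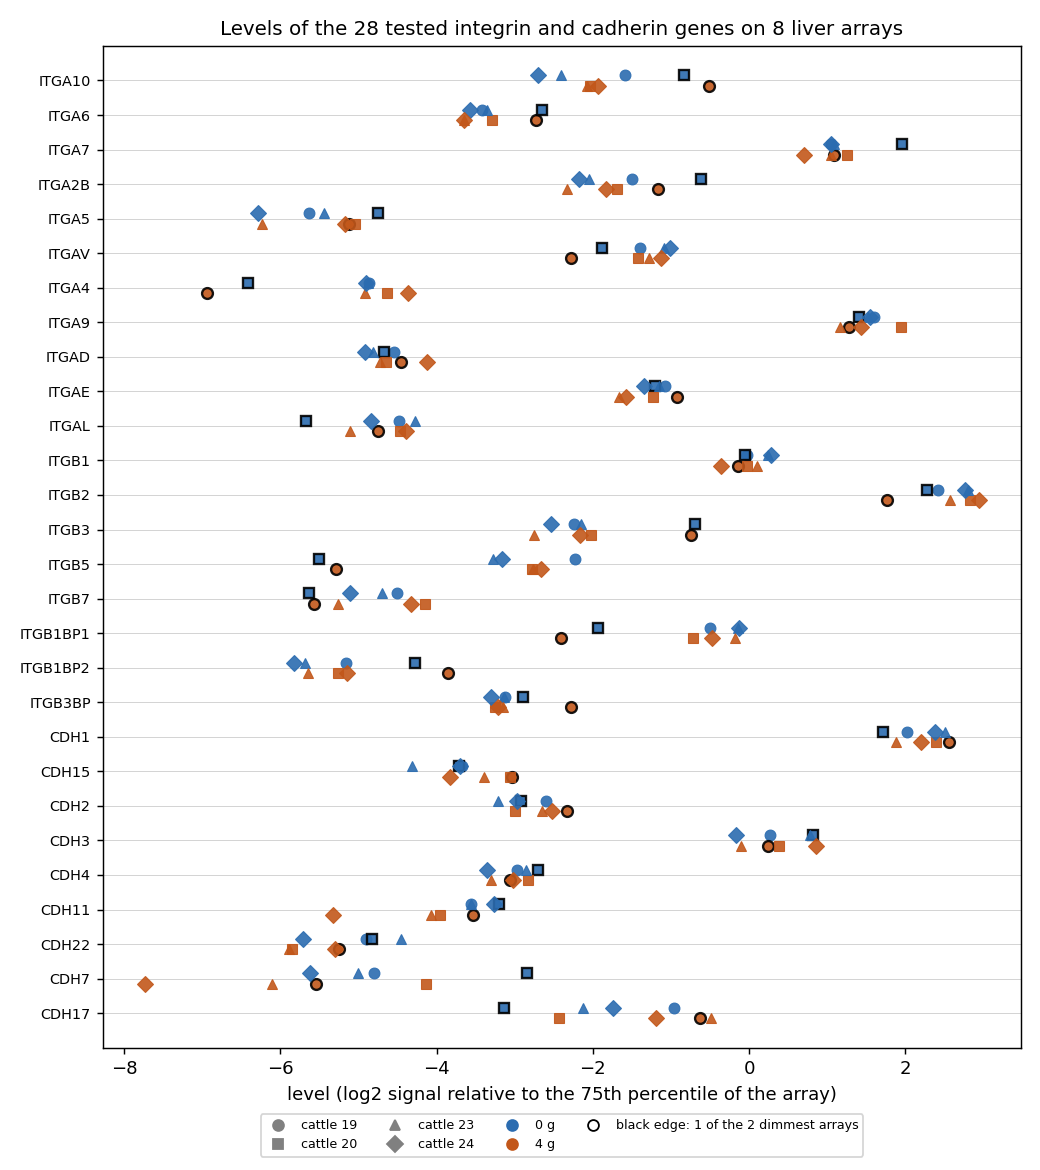
Level of each of the 28 tested genes on the 8 arrays, in log2 units relative to the array's 75th percentile; symbols mark the animal, blue is 0 g, orange is 4 g, and a black edge marks the dimmest pair of arrays. Blue and orange points overlap for every gene shown, and the black-edged points lie apart from the others for ITGB5, ITGA4, ITGB3 and ITGA10. Levels of different genes come from different probes and are not to be set against each other.

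The first question the design asks is whether the 4 g dose was accompanied by other levels than 0 g in the same animals. No integrin or cadherin gene passed: 0 of 28 had a limma adjusted p under 0.05, as did 0% of the 10985 probes tested, and the adjusted p of every member rounded to 1.00. At an unadjusted p under 0.05 there were 2 of 28, CDH7 (lower at 4 g) and CDH17 (higher), beside 1.09% of all probes, 0.737% lower and 0.355% higher. All 4 animals had the same direction for 3 of 28, beside 5.24% of all probes: CDH7 was lower in each (2.08% of all probes were), and CDH17 and ITGAD higher (3.17%). For 0 of 28 did the 0 g and 4 g arrays fail to overlap, beside 0.619% of all probes.

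Differences were spread around 0, with 13 of the 28 members higher and 15 lower at 4 g, against 55.1% of all probes higher. The median difference was −0.03 for the members and 0.03 for all probes. Within animals the members' median difference was 0.04 in cattle 19, −0.05 in cattle 20, −0.26 in cattle 23 and 0.34 in cattle 24, so it changed sign between animals. A 95% interval that leaves out a 2-fold difference in either direction was reached for 14 of 28 members, beside 64.3% of all probes, and a typical interval reached 0.71 log2 units to either side. For the other 14 members a 2-fold difference is within what 4 animals can show.

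**Figure D2:**
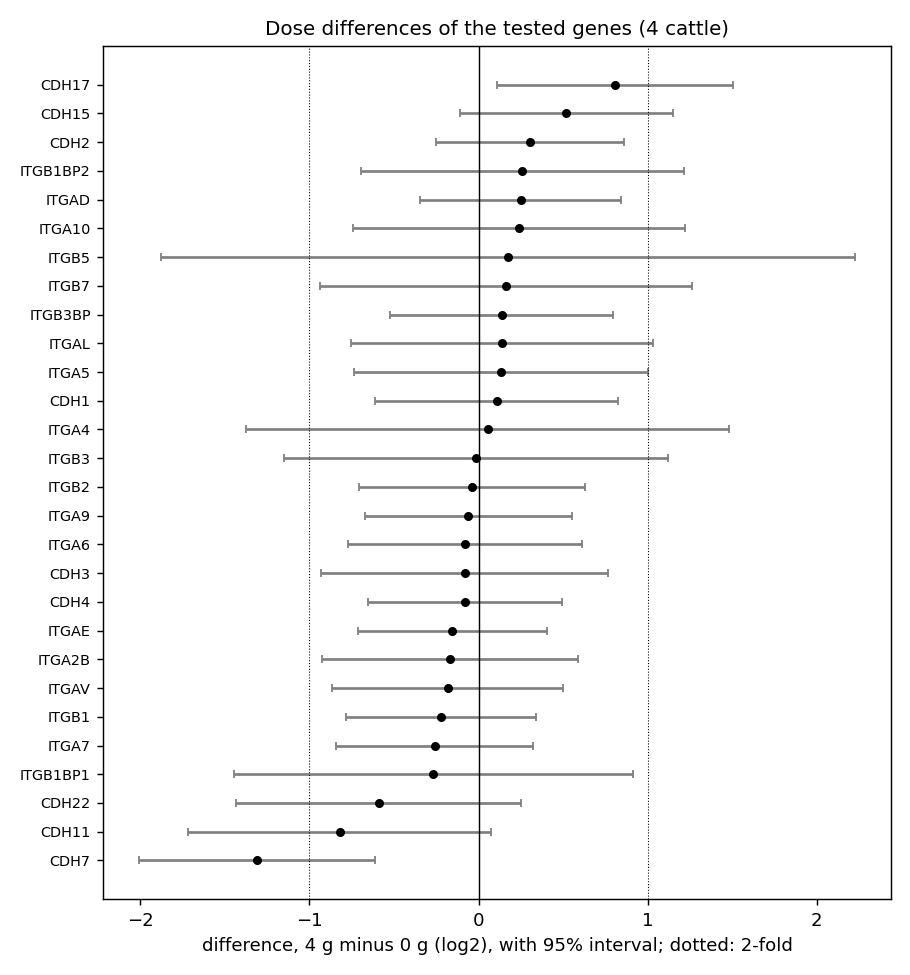
Difference between 4 g and 0 g (log2, mean over 4 animals) with its 95% interval from limma for each of the 28 tested genes, ordered by size; dotted lines mark a 2-fold difference. The intervals of CDH7 (−1.31) and CDH17 (0.81) leave out 0 before adjustment, and that of ITGB5 is the widest. No adjusted p was under 0.05.

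Values below are given for cattle 19, 20, 23 and 24 in that order. CDH7 is a type II classical cadherin, known from the neural crest and nervous system, with its probe at chr24:11082501-11082560 on the minus strand. Its level was −4.80, −2.85, −5.01 and −5.62 at 0 g and −5.55, −4.14, −6.11 and −7.73 at 4 g. It was lower at 4 g in 4 of 4 animals, while the ranges of both doses overlapped, and cattle 20 was the highest animal at each dose. The fitted difference was −1.31 (95% interval −2.01 to −0.61) with an adjusted p of 1.00 in limma. These are weak signals: background was clearly exceeded at 0 g on 4 of 4 arrays and at 4 g on 1 of 4, so the gene was tested mainly through its 0 g arrays and the size of the difference rests on 4 g values mostly not well above background. With the normexp background correction the difference was −0.16, but its offset of 50 added to every signal narrows differences between dim probes. Without the 2 dimmest arrays, unpaired, it was −0.85. That fit keeps cattle 19 only at 0 g and cattle 20, the highest animal, only at 4 g, so dose and animal are mixed in it.

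CDH11 and CDH22 are the other type II cadherins that could be tested. CDH11, a cadherin of mesenchymal cells such as fibroblasts and activated stellate cells, has its probe at chr18:32799653-32799712 on the minus strand. Its level was −3.56, −3.20, −3.56 and −3.26 at 0 g and −3.53, −3.96, −4.07 and −5.32 at 4 g. The 0 g arrays lay close together and 3 of the 4 animals were lower at 4 g, cattle 24 by far the most. The difference was −0.82 (SE 0.37, adjusted p 1.00 in limma). Without cattle 24 it was −0.41, and with normexp −0.20. CDH22, known mainly from brain, stood at −4.90, −4.83, −4.46 and −5.71 at 0 g and at −5.24, −5.85, −5.89 and −5.30 at 4 g, lower in 3 of 4 animals, with a difference of −0.59 (SE 0.35). It was −0.93 without cattle 24, −0.31 without cattle 23 and −0.16 with normexp. All 3 tested type II cadherins were thus below 0, where 55.1% of all probes were above, and none was past the threshold. CDH22 was well above background on 3 arrays at 0 g and 2 at 4 g, and CDH7 entered mainly through its 0 g arrays. The filter may thus have favoured this direction, which is not read as a result.

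CDH11 and CDH7 were read beside the markers of stellate cells, fibroblasts and smooth muscle, all 13 of which are on the array, 10 to 13 of them well above background per array. Their summed level ran from 5.52 to 6.61 at 0 g and from 4.77 to 5.58 at 4 g. Of the 13, 9 had a difference below 0 (median −0.35), where 55.1% of all probes were above 0. In limma, 4 had an unadjusted p under 0.05, beside 1.09% of all probes, and none an adjusted one. The lowest sum, 4.77, was on the 4 g array of cattle 24, where CDH11 and CDH7 were also lowest. The highest, 6.61, was on the 0 g array of cattle 20, an array of the dimmest pair, where both genes were highest. That array also had the highest sums of the bile duct, T and NK lymphocyte, neutrophil and platelet markers, while the other marker lists peaked elsewhere. In bulk tissue, fewer cells of a type and less RNA per cell cannot be told apart. The part of stellate cells, fibroblasts and smooth muscle in the values of CDH7 and CDH11 was not tested. For CDH7, 8 neuron and Schwann cell markers were also read: ELAVL4, SOX10 and TUBB3 were well above background on no array, and the sum over the list was highest on the 0 g array of cattle 23, at 1.72 against −0.08 to 0.81 on the others.

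CDH17, liver-intestine cadherin, lies outside the classical groups and is known from intestinal epithelium. Its probe is at chr14:72525094-72525153 on the plus strand. Levels were −0.96, −3.14, −2.13 and −1.74 at 0 g and −0.62, −2.44, −0.49 and −1.20 at 4 g. Every animal was higher at 4 g, cattle 23 by the most, and cattle 20 was the lowest at both doses. The difference was 0.81 (95% interval 0.11 to 1.51, adjusted p 1.00 in limma). Without cattle 23 it was 0.53, in cattle 19 and 20 alone 0.52, and with normexp 0.36. Without the dimmest pair, unpaired, it was 0.24. In that fit cattle 19 is left only at 0 g and cattle 20, the lowest animal, only at 4 g, so dose and animal are mixed. The 0 g array of cattle 23 is the one with the highest sum of pancreatic markers. On the 4 g array of this animal, 8 of the 10 were also well above background. Bile duct markers, all 7 well above background on every array, summed to 3.96 to 5.39 at 0 g and to 3.42 to 4.97 at 4 g. The part of either list in the CDH17 values was not tested.

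**Figure D3:**
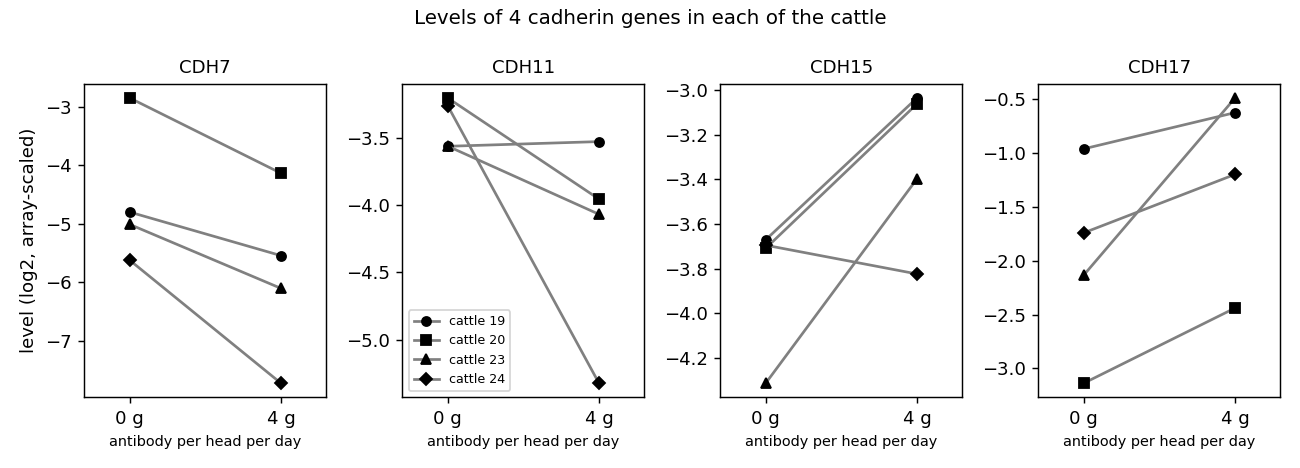
Levels (log2, relative to the array's 75th percentile) of CDH7, CDH11, CDH15 and CDH17 at 0 g and 4 g, with a line for each of the 4 animals; each panel has its own vertical scale. CDH7 is lower at 4 g along all 4 lines and CDH17 higher along all 4, with cattle 20 at the edge of both panels, and the steepest CDH11 line is that of cattle 24.

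All 5 type I classical cadherins were well above background on all 8 arrays, and 3 of their differences were above 0. CDH15, or M-cadherin, is known from muscle. It stood at −3.67, −3.71, −4.31 and −3.69 at 0 g and at −3.03, −3.06, −3.40 and −3.82 at 4 g. It was higher at 4 g in 3 of 4 animals, by a mean of 0.52 (SE 0.26), and the 0 g array of cattle 23 was apart from the other 3 at that dose. With normexp the difference was 0.02. N-cadherin, CDH2, was at −2.60, −2.92, −3.22 and −2.97 at 0 g and at −2.32, −2.99, −2.66 and −2.52 at 4 g, a difference of 0.30 (95% interval −0.25 to 0.86), and it was higher in 3 animals.

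CDH1, the E-cadherin of hepatocytes and bile duct cells, gave 2.02, 1.71, 2.50 and 2.38 at 0 g and 2.56, 2.40, 1.88 and 2.20 at 4 g. Cattle 19 and 20 were higher at 4 g and cattle 23 and 24 lower, so the mean difference was 0.11 with an interval of −0.61 to 0.83, which leaves out a 2-fold difference. P-cadherin, CDH3, ranged from −0.17 to 0.86 and R-cadherin, CDH4, from −3.36 to −2.71 over the 8 arrays, each with a difference of −0.08. For these 2, as for CDH1, the doses differed by less than the SD between animals at either dose.

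Among the alpha chains, those of collagen and laminin receptors that could be tested were ITGA10, ITGA6 and ITGA7. ITGA10 pairs with beta 1 as a collagen receptor of cartilage, and its level was −1.58, −0.83, −2.40 and −2.71 at 0 g and −0.52, −2.04, −2.08 and −1.94 at 4 g. The highest arrays were the 4 g array of cattle 19 and the 0 g array of cattle 20, the dimmest pair, and the difference between doses was 0.24 (SE 0.41). ITGA6, a laminin receptor chain, showed the same pair on top: it stood at −3.42, −2.65, −3.35 and −3.57 at 0 g and at −2.73, −3.29, −3.64 and −3.65 at 4 g, a difference of −0.08 (SE 0.29). ITGA7, the laminin receptor chain best known from muscle, was at 1.04, 1.96, 1.09 and 1.05 at 0 g and at 1.09, 1.26, 1.04 and 0.71 at 4 g. Only the 0 g array of cattle 20 stood apart, and the difference was −0.26 (95% interval −0.84 to 0.32), which leaves out a 2-fold difference.

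ITGA2B, ITGA5 and ITGAV bind fibrinogen, fibronectin or vitronectin through the RGD motif. The platelet chain ITGA2B was at −1.50, −0.61, −2.04 and −2.18 at 0 g and at −1.16, −1.69, −2.33 and −1.83 at 4 g, with the dimmest pair highest and a difference of −0.17 (SE 0.31). ITGAV, the shared alpha chain of the vitronectin receptors, had the dimmest pair lowest: −1.40, −1.89, −1.09 and −1.01 at 0 g and −2.28, −1.42, −1.29 and −1.13 at 4 g, a difference of −0.18 (SE 0.28). ITGA5, the fibronectin receptor chain, was well above background on only 4 arrays and lay at −5.63, −4.74, −5.44 and −6.29 at 0 g and at −5.13, −5.05, −6.24 and −5.17 at 4 g, with no common direction over animals (0.13, SE 0.36).

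ITGA4 and ITGA9 form a group of their own among the alpha chains; ITGA4 is found on lymphocytes and binds VCAM1 and MADCAM1. Its level was −4.86, −6.42, −4.88 and −4.90 at 0 g and −6.94, −4.64, −4.92 and −4.36 at 4 g. The 2 values under −6 are those of the dimmest pair, where the difference was −2.07 in cattle 19 and 1.78 in cattle 20, and the mean over animals was 0.05 (SE 0.59). ITGA9 varied little, at 1.60, 1.40, 1.52 and 1.54 at 0 g and at 1.28, 1.95, 1.17 and 1.43 at 4 g, and its difference of −0.06 had an interval of −0.67 to 0.55.

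Leukocyte alpha chains pair with beta 2 or beta 7. ITGAD, a partner of beta 2 on macrophages, was at −4.54, −4.67, −4.82 and −4.92 at 0 g and at −4.46, −4.65, −4.73 and −4.12 at 4 g. It was higher at 4 g in all 4 animals, but by 0.02 to 0.09 in 3 of them and by 0.80 in cattle 24, which makes a mean of 0.25 (SE 0.24). ITGAE, the partner of beta 7 that binds E-cadherin and marks T cells within epithelia, was at −1.08, −1.20, −1.16 and −1.34 at 0 g and at −0.92, −1.23, −1.67 and −1.58 at 4 g, a difference of −0.15 (95% interval −0.72 to 0.41). ITGAL, the alpha chain of LFA-1, was at −4.47, −5.68, −4.28 and −4.83 at 0 g and at −4.75, −4.47, −5.11 and −4.39 at 4 g, a difference of 0.14 (SE 0.37). ITGAM, the myeloid partner of beta 2, was well above background on 1 array only and was not tested.

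The tested beta chains differed in how far they varied over the arrays. ITGB1, the shared partner of many alpha chains, was at −0.03, −0.05, 0.24 and 0.29 at 0 g and at −0.14, −0.03, 0.10 and −0.36 at 4 g. All its values lay within less than 1 log2 unit, and the difference of −0.22 (95% interval −0.78 to 0.34) leaves out a 2-fold difference. ITGB5, the partner of ITGAV in the vitronectin receptor, stood at −2.23, −5.51, −3.28 and −3.17 at 0 g and at −5.28, −2.78, −2.77 and −2.66 at 4 g. The dimmest pair lay far below the other 6 arrays, which overlapped between doses. Within animals, the difference was −3.05 in cattle 19, 2.73 in cattle 20, 0.51 in cattle 23 and 0.51 in cattle 24, and the mean of 0.17 had an SE of 0.85, the largest of the 28.

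ITGB7, the beta chain of the gut-homing lymphocyte integrin, was at −4.50, −5.64, −4.70 and −5.11 at 0 g and at −5.57, −4.15, −5.26 and −4.32 at 4 g, with the dimmest pair lowest and a difference of 0.16 (SE 0.46). The remaining tested beta chains also had the dimmest pair at 1 end of their range. ITGB2, the leukocyte beta chain, was at 1.77 and 2.28 on that pair and at 2.42 to 2.94 on the other 6, and ITGB3, the platelet and vitronectin receptor chain, at −0.74 and −0.69 on the pair and at −2.75 to −2.02 on the rest. The doses differed by −0.04 for ITGB2 (95% interval −0.70 to 0.63) and by −0.02 for ITGB3 (SE 0.47). ITGB8, which activates latent TGF-beta as a partner of ITGAV, was well above background on 2 arrays, both at 4 g, and was not tested.

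Of the genes matched by name alone, 3 could be tested. ITGB1BP1, which binds the beta 1 tail and holds back its activation, was at −0.51, −1.93, −0.14 and −0.14 at 0 g and at −2.41, −0.72, −0.18 and −0.47 at 4 g, lowest on the dimmest pair (difference −0.27, SE 0.49). ITGB1BP2, or melusin, a muscle protein, was at −5.16, −4.28, −5.68 and −5.82 at 0 g and at −3.86, −5.26, −5.64 and −5.15 at 4 g, highest on that pair (0.26, SE 0.40). ITGB3BP, also known as the centromere protein CENPR, was at −3.13, −2.90, −3.13 and −3.30 at 0 g and at −2.28, −3.26, −3.15 and −3.22 at 4 g, again highest on that pair (0.14, SE 0.27).

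A split of the arrays by brightness thus ran through 12 of the 28 tested members, for which both arrays of the dimmest pair lay outside the range of the other 6. ITGB5, ITGA4, ITGB1BP1, ITGB7, ITGAV and ITGB2 were below, beside 19.7% of all probes, and ITGB3, ITGA10, ITGB1BP2, ITGA2B, ITGA6 and ITGB3BP above, beside 24.4%. Over both directions the share of all probes was 44.1%, so the members are near the background. The sizes were 0.61 log2 units in the median over members and 0.50 over all probes. For ITGB5 the pair's mean was lower by 2.58 (−5.40 against −2.81 ± 0.38, SD of the other 6 arrays), and for ITGB3 higher by 1.59 (−0.72 against −2.31 ± 0.28). For 0 of 28 members did a single array exceed the next by over 2 log2 units, beside 0.856% of all probes. ITGB5 was the only member among 148 probes of the array that took 2 clearly separate levels, of which 130 divided the dimmest pair from the rest.

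The size of this split was also read under other treatments of the signal. In normexp as run here, an offset of 50 was added to every signal, which narrows the differences of dim probes whatever their source. A smaller split with it is therefore partly built in. With normexp, 2 of the 28 members (ITGB1BP1 below, ITGA10 above) and 18.2% of all probes had the dimmest pair outside the range of the other 6, and the ITGB5 gap was −0.02. With quantile normalization, which keeps the deposited background subtraction, it was 13 of 28, including all 12 above, beside 44.4%. Each dose holds 1 array of the pair, so the split enters the dose difference of cattle 19 and that of cattle 20 with opposite signs: these were of opposite sign for 20 of the 28 members, beside 75.7% of all probes. Without the pair, unpaired, 5 of the 10985 probes (0.0455%) had an adjusted p under 0.05 in limma and no member did; CDH11 was the only member at an unadjusted p under 0.05, beside 2.79% of all probes.

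For the platelet chains ITGA2B and ITGB3, which form 1 receptor and were both highest on the dimmest pair, the 5 platelet and megakaryocyte markers on the array were read as well. They summed to 1.41 and 1.77 on the pair and to 0.69 to 1.43 on the other 6, with 4 or 5 of them well above background on each array. The part of platelets in these values was not tested. Across the 28 members, the signed split (dimmest pair minus the other 6) had a Spearman correlation of 0.15 with the GC content of the probe. With its position in the transcript the correlation was 0.02. Over all tested probes these were 0.009 and 0.13. They are descriptions over probes that share the same 8 arrays.

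**Figure D4:**
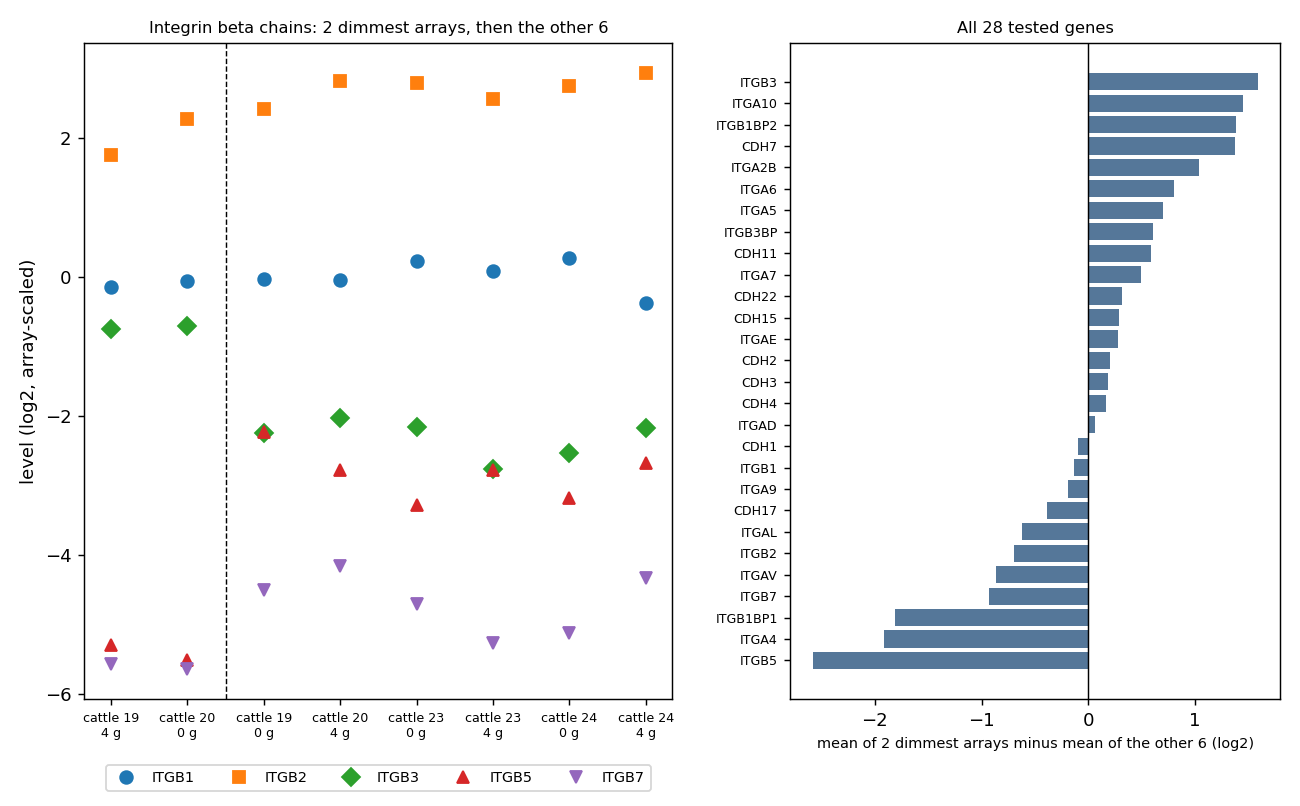
Left, levels (log2, relative to the array's 75th percentile) of 5 integrin beta chain genes on the 2 dimmest arrays, before the dashed line, and on the other 6. Right, for all 28 tested genes, the mean of the dimmest pair minus the mean of the other 6 (log2). ITGB5 sits far lower and ITGB3 higher before the line than after it, and ITGB1 stays level.

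The arrays also allow a comparison between animals, each measured on 2 arrays. In limma's F-test, 0 of 28 members passed at an adjusted p under 0.05, as did 0% of all probes, and the lowest adjusted p among the members was 0.985. At an unadjusted p under 0.05 there were 2 of 28, beside 2.71% of all probes, and they were again CDH7 and CDH17. Both arrays of cattle 20 were above all other arrays for CDH7 and below all others for CDH17. The order of the other 3 animals is less clear, since the pairing of the arrays of cattle 23 and 24 rests on their labels.

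Genes that work with the receptors were read from 3 lists. Of 26 tested integrin adapters and signalling genes, 14 were above and 12 below 0 (median 0.05), beside 55.1% of all probes above. None had an adjusted p under 0.05 in limma. At an unadjusted p under 0.05, beside 1.09% of all probes, there was 1 of the 26. That was FLNA, the actin cross-linker filamin A, at −1.71, −1.10, −1.53 and −1.88 at 0 g and at −3.50, −1.54, −2.04 and −2.36 at 4 g, lower in all 4 animals (difference −0.81, SE 0.31). The next genes by p were LIMS2, a partner of integrin-linked kinase, with a difference of 0.69 (SE 0.41), and TLN2, a talin, with −0.66 (SE 0.43). Of 11 tested cadherin partners, 8 were above and 3 below 0 (median 0.10), and none reached an unadjusted p under 0.05. The smallest p values belonged to VEZT, a protein of adherens junctions (0.32, SE 0.27), ARVCF, a catenin of the p120 family (0.52, SE 0.45), and CTNNA1, alpha-catenin (0.19, SE 0.23).

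Integrin ligands were the third list, with 31 tested, 12 above and 19 below 0 (median −0.03), beside 55.1% of all probes above. None had an adjusted p under 0.05 in limma and 4 had an unadjusted one, beside 1.09% of all probes. COL1A2, a chain of type I collagen, was at 2.81, 3.42, 3.13 and 2.23 at 0 g and at 2.04, 2.18, 2.81 and 0.78 at 4 g, lower in all 4 animals (−0.94, SE 0.27). Being also one of the stellate and fibroblast markers above, it shared the low 4 g array of cattle 24. SPP1, osteopontin, a ligand of ITGAV and ITGA9 receptors, was at −3.87, −2.98, −4.58 and −3.89 at 0 g and at −3.25, −2.93, −1.98 and −1.81 at 4 g, higher in all 4 (1.34, SE 0.46), by far the most in cattle 23 and 24. TNC, tenascin C, another ligand of ITGA9, was higher in all 4 as well (0.81, SE 0.27). MADCAM1, the ligand of the ITGA4 and ITGB7 pair, named here after its values were seen, completed the 4 with 0.84 (SE 0.30), while the chains of its receptor differed by 0.05 (SE 0.59) and 0.16 (SE 0.46) between doses.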

How the data were processed

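Liver RNA was labelled with Cy3 and hybridised to 8 one-colour Agilent cattle arrays on 1 slide, 4 per dose. The deposited intensity values are processed signals, background-subtracted on a linear scale, made with Feature Extraction 11.0.1.1 per the file headers (9.5 per the submitters' processing notes). The authors' deposited value matrix holds log2 values, and they correlated at 1.00 with the log2 processed signal of each array over 15008 probes. Its columns had 75th percentiles near 0.01 and medians of −3.04 to −2.84.

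Each array had 15646 features. Leaving out 536 controls gave 15110 spots of 15008 probes, and 48 outlier spots were dropped. No spot was saturated. From log2 of the processed signal, the array's 75th percentile was subtracted and spots of 1 probe were averaged. The 10985 probes that were well above background on 4 or more of the 8 arrays entered a 2-sided limma fit (lmFit, then eBayes; version 3.58.1, R 4.3.3) that held a term for each animal, and p-values were adjusted over all of them by the Benjamini-Hochberg method; data.table version 1.17.8, Python 3.11.15, pandas 2.3.3, numpy 2.4.6 and matplotlib 3.10.9 read, tabulated and drew. SE and intervals are of the difference within animals as labelled. The number of arrays limits the precision.

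The block follows the animal numbers in the labels. Deviations from the dose means correlated at −0.25, −0.22, 0.21 and 0.15 between the arrays of cattle 19, 20, 23 and 24 (9249 probes). Each dose mean includes 1 dim array, which belongs to cattle 19 or cattle 20. The split by brightness alone therefore pushes the correlation down in cattle 19 and 20 and up in cattle 23 and 24. For this reason the check cannot decide whether the pairing is right. Nothing in the labels separates the animals' samples further than 1 array per animal and dose. Row 1 of the slide holds cattle 19 and 20, row 2 cattle 23 and 24.

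Gene names were updated through RefSeq's genes of ARS-UCD2.0, from which no coordinate was taken. Genes, gene lists and alternatives were chosen with earlier results of these data known. Values on every array are given for up to 3 tested genes per role with the smallest p, the 6 with the smallest p between animals, and any gene whose highest array lay over 2 log2 units above the next. Of each pathway list, up to 3 genes with the smallest p are named.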

Additional observations from a re-analysis of the deposited data

Results flagged for a closer look

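In 56 groups of 4 arrays (28 genes at each dose), 7 had 1 array far from the other 3 by Dixon's criterion. For independent values its nominal rate is about 1 of 20 groups. These groups share the same arrays and the share over all probes was not counted, so the 7 are not read as particular to these genes. On the 4 g array of cattle 19, ITGB5 was at −5.28 against −2.78 to −2.66, ITGA10 at −0.52 against −2.08 to −1.94 and ITGB3BP at −2.28 against −3.26 to −3.15. On the 0 g array of cattle 20, ITGA4 was at −6.42 against −4.90 to −4.86 and ITGA7 at 1.96 against 1.04 to 1.09. These 5 values are thus from the dimmest pair of arrays. The other 2 were from cattle 23: CDH15 at 0 g, at −4.31 against −3.71 to −3.67, and ITGA5 at 4 g, at −6.24 against −5.17 to −5.05.

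Among the genes too dim to be tested, a signal well above background at 4 g and above every 0 g array was seen for CDH16, a kidney cadherin, at −5.16 in cattle 24 against −8.23 to −6.03 at 0 g. The same held for ITGB8, at −4.61 in cattle 19 and −5.28 in cattle 20 against −8.17 to −5.80 at 0 g. The 0 g values of these animals were −5.80 and −6.77. Cattle 23 and 24 were lower at both doses, at −8.01 and −8.17 at 0 g and at −8.23 and −7.65 at 4 g, so ITGB8 also differed between animals. In the other direction, 6 untested genes were well above background at 0 g only, and for 5 of them such an array lay above every 4 g array. ITGAM was at −5.38 in cattle 24 against −6.98 to −6.53 at 4 g, and CDH20 at −5.59 in cattle 23 against −7.71 to −6.31. ITGA2, CDH19 and ITGB1BP3 were the others, at −4.99, −5.59 and −5.69 against 4 g maxima of −5.08, −5.61 and −5.90. How often other dim probes of the array did the same in either direction was not counted.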

How the results depend on the processing

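With 14 alternatives, no member reached an adjusted p under 0.05 for dose, and none between animals in the 5 of them for which that test was run (normexp, quantile, both filters and the trend with robust variances); 8 of 24 genes followed kept their sign in all they could be fitted in and 16 did not. Fits without the replicate block left every difference as it was and called 0 probes, as did the slide row as block, with 103 and 143 probes at an unadjusted p under 0.05 in place of 120; the members among them were 1 (CDH11) and 3 (CDH7, CDH11 and CDH15) in place of 2. Among all probes, 5 passed the adjusted threshold without the 2 dimmest arrays and 0 in the other fits. Counts at an unadjusted p under 0.05 were 17 with normexp, 186 without a filter, 16 in cattle 19 and 20 alone, 50 without the 0 g array of cattle 23, 307 without the dimmest pair, and 58 to 404 when 1 animal was left out. Normexp turned the sign of ITGA4 (−0.0884), ITGA5 (−0.0887), ITGAD (−0.0694), ITGAL (−0.0964), ITGB1BP2 (−0.0736), ITGB3BP (−0.0442), ITGB5 (−0.0459) and ITGB7 (−0.0802). With it, the median difference of all probes was −0.05, against 0.03 without it, and its offset narrows the differences of dim probes. Cattle 19 and 20 alone turned ITGA10 (−0.0712), ITGA4 (−0.15), ITGA6 (0.0232), ITGA9 (0.11), ITGAE (0.0644) and ITGB5 (−0.16). Without the dimmest pair, a fit in which dose and animal are mixed, CDH1 (−0.14), ITGAL (−0.13) and ITGB3BP (−0.0228) turned. Leaving out 1 animal at a time turned these, over ranges of −0.0852 to 0.35 for CDH1, −0.0373 to 0.72 for ITGA10, −0.34 to 0.13 for ITGA2B, −0.52 to 0.76 for ITGA4, −0.20 to 0.44 for ITGA5, −0.34 to 0.11 for ITGA6, −0.26 to 0.0376 for ITGA9, −0.22 to 0.46 for ITGAL, −0.40 to 0.0491 for ITGAV, −0.76 to 0.28 for ITGB1BP1, −0.0887 to 0.67 for ITGB1BP2, −0.0985 to 0.30 for ITGB3BP, −0.68 to 1.25 for ITGB5 and −0.28 to 0.57 for ITGB7. The cause was not tested. The stricter filter left 19 members, without CDH7, CDH22, ITGA4, ITGA5, ITGAD, ITGAL, ITGB1BP2, ITGB5 and ITGB7. These 9 and the 20 untested genes were not well above background on every array, and all differences rest on 4 animals.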

Other observations

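Some ligands of the vitronectin receptor were looked up after the values of ITGB5 and ITGAV had been seen. VTN, vitronectin itself, a plasma protein made by hepatocytes, was at 5.57, 3.24, 4.57 and 4.83 at 0 g and at 2.96, 5.29, 4.60 and 5.27 at 4 g (cattle 19, 20, 23 and 24), so its lowest arrays were also the dimmest pair, 1.92 log2 units below the mean of the other 6. FN1, fibronectin, was lowest on the same arrays, at 3.54 and 3.69 against 4.54 to 5.04. The doses differed by −0.02 (SE 0.70) for VTN and by 0.05 (SE 0.38) for FN1. Both were chosen for this pattern, and other ligands did not share it: SPP1 differed by 0.06 between the pair and the other 6, and POSTN, periostin, by 0.74. Of the 31 tested integrin ligands, 7 had the pair below the other 6 and 5 above, beside 19.7% and 24.4% of all probes.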
